A study of Mus musculus with 20 samples.

Results

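The genes described here are the 80 protein genes of the cytosolic ribosome, 49 of the large subunit and 31 of the small subunit, out of 49315 genes in the table. They were taken by symbol (Rpl or Rps with a number, the stalk genes Rplp0 to Rplp2, and Rpsa), and 3 further matches to the pattern, Rps4l, Rpl32l and Rpl6l, were left out because they are annotated as pseudogenes. Liver RNA was sequenced from 10 mice given S217879 (a daily oral dose of 30 mg/kg) and from 10 mice given the vehicle HEC 1%, both for 8 weeks. All 20 animals had diet-induced obesity and steatohepatitis and were kept on the AMLN diet, so a liver without disease was not part of the comparison. The sources used here name neither strain nor sex nor age. According to the series title, S217879 breaks the contact between NRF2, a transcription factor of the oxidative stress response, and KEAP1, which holds it in check. The comparison addresses how the diseased liver responds. Expression is in TPM, a unit which corrects for gene length and states each gene relative to its library. TPM keeps no depth, so read numbers are unknown, and errors are the spread between separately numbered animals.

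Ribosomes are built from ribosomal RNA and these proteins, most of them present once in each particle, so cells make the proteins in matched amounts. Their messenger RNAs are among the most abundant in liver and typically begin with a run of C and T bases, the 5′ terminal oligopyrimidine (TOP) tract, through which the kinase mTORC1 and the RNA-binding protein LARP1 control their translation and stability. Free Rpl5 and Rpl11, carried together with 5S ribosomal RNA, restrain MDM2 and thereby stabilise p53, which links ribosome assembly to stress.

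The stretches around the annotated starts of 8 members are shown because these genes were among the highest or lowest within the family in S217879 livers, as described below. Of the 77 members abundant enough to be tested, 57 had an entry in the RefSeq promoter table (GRCm38.p6, first entry per gene), which runs from 250 bases before to 50 after the annotated start. Rpl36 and Rpl3, the highest and lowest members within the family, were not among these 57, so the 8 leave out both extremes. Rps9, slightly lower than Rpl10, is not shown either. Each line gives 30 bases, read 5′ to 3′ on the gene's strand, with a run of C and T in capitals. It is the longest run found within 50 bases of the start, followed on past that limit where it continues.
Rps7 (chr12:28635911-28635940, minus strand): ctgtccccaCCTCTTTTCTTCCgccacccg
Rpl12 (chr2:32961732-32961761, plus strand): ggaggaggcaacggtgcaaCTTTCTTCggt
Rps2 (chr17:24720083-24720112, plus strand): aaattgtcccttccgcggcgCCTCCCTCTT
Rpsa (chr9:120127702-120127731, plus strand): gagcggaagTTCTCCCTTTTTgcttagcct
Rpl41 (chr10:128549119-128549148, minus strand): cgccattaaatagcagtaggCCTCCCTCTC
Rps27l (chr9:66946053-66946082, plus strand): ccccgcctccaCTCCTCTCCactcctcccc
Rps4x (chrX:102189342-102189371, minus strand): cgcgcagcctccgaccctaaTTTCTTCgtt
Rpl10 (chrX:74270836-74270865, plus strand): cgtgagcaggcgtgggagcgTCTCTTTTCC

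The first 4 were high members and the last 4 low members, and runs of C and T stood in both sets, from 7 bases in Rps4x to 12 in Rpsa and 13 in Rps7. Counted from the annotated start, with negative values before it, the runs began at -55 in Rpsa and -22 in Rps27l. They began at 22 in Rps7, 39 in Rpl12 and 40 in Rps2, Rpl41, Rps4x and Rpl10. None began at the annotated start, so none is shown here to be a TOP tract. The runs of Rps2, Rpl41 and Rpl10 reach the end of the table's entry and may be longer. Counting only bases within 50 of the start, a run of at least 8 was present in 47 of the 57 entries (82.5%) and in 35.7% of the windows of all 27025 genes, and the median longest run was 10 bases in the members and 7 in all genes. The pentamer CTTTC, searched on the gene's strand within 50 bases of the start, was present in 29 entries (50.9%) and in 12.6% of all windows. The motif CCGGAAG, on either strand of the 300 bases, was present in 23 entries (40.4%) and in 9.12% of all windows. Since 57 of 77 is 74.0%, under the 80% needed for a check over the family, these shares describe the 57 entries alone.

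Livers showed the family at high levels. Mean TPM over the 20 libraries ran from 23.4 for Rps15a to 1113 for Rplp1, with a median member at 176 TPM. The 6 most abundant members were Rplp1, a stalk protein that recruits elongation factors, Rps2, which lines the entry of the messenger RNA channel, Rps12, Rpl8, a protein near the catalytic centre, Rps15 and Rpl17, and they made up 22.8% of the family's summed TPM. Rpl10l, Rpl39l and Rpl3l, copies known from testis and striated muscle, were below the minimum of 1 TPM. Rpl10l was listed at most at 0.0415 TPM in S217879 libraries and at 0 in every vehicle library. Rpl39l reached 0.124 TPM in S217879 libraries and 0.175 TPM in vehicle libraries, and Rpl3l 0.258 and 0.342 TPM. The tissue label fitted the libraries, with Alb, the gene of serum albumin, at a median of 29584 TPM in S217879 livers and 37094 TPM in vehicle livers. Nqo1, a textbook NRF2 target, had 74.9, 102 and 122 TPM (lowest, median and highest) in S217879 livers against 8.51, 15.7 and 19.6 TPM in vehicle livers.

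As a share of the library, the family's sum did not separate the groups. The summed TPM of the 80 genes was 15123, 18211 and 22468 (lowest, median and highest) in S217879 livers and 10673, 17190 and 18839 in vehicle livers, and the groups overlapped. The means were 18301 ± 2215 and 15995 ± 2949 TPM (SD, n = 10 each), a ratio of 1.14. The lowest sums belonged to vehicle libraries 6 and 7, in which 4 models of ribosomal RNA type took 58.24% and 50.73% of all TPM, against 14.07% to 38.07% in S217879 libraries and 17.37% to 31.41% in the other vehicle libraries. These models are Gm23935 and Gm24270 (exon length 57 bases each), Mir6236 (123 bases) and Gm42418 (1831 bases). Without vehicle libraries 6 and 7 the ratio of the sums was 1.06. With all libraries rescaled without those 4 genes the means were 24044 ± 1422 in S217879 livers and 22940 ± 1120 in vehicle livers, a ratio of 1.05.

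Relative to the typical gene, the family stood higher in S217879 livers. Median-of-ratios scaling sets each library on the median ratio of its genes to their average over libraries, and it moved the median log2 difference of all tested genes to 0.02, against -0.12 as deposited. On this scale the summed values were 17650, 18910 and 22694 in S217879 livers and 13278, 14723 and 15622 in vehicle livers. Every S217879 library lay above every vehicle library, with means of 19134 ± 1427 and 14831 ± 692.9 (SD, n = 10 each) and a ratio of 1.29, or 1.27 without vehicle libraries 6 and 7. The mean sum of the large subunit genes was 1.34 times that of the small subunit genes in S217879 livers and also 1.34 times in vehicle livers, and ranged from 1.32 to 1.35 over S217879 libraries and from 1.32 to 1.36 over vehicle libraries.

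**Figure D1:**
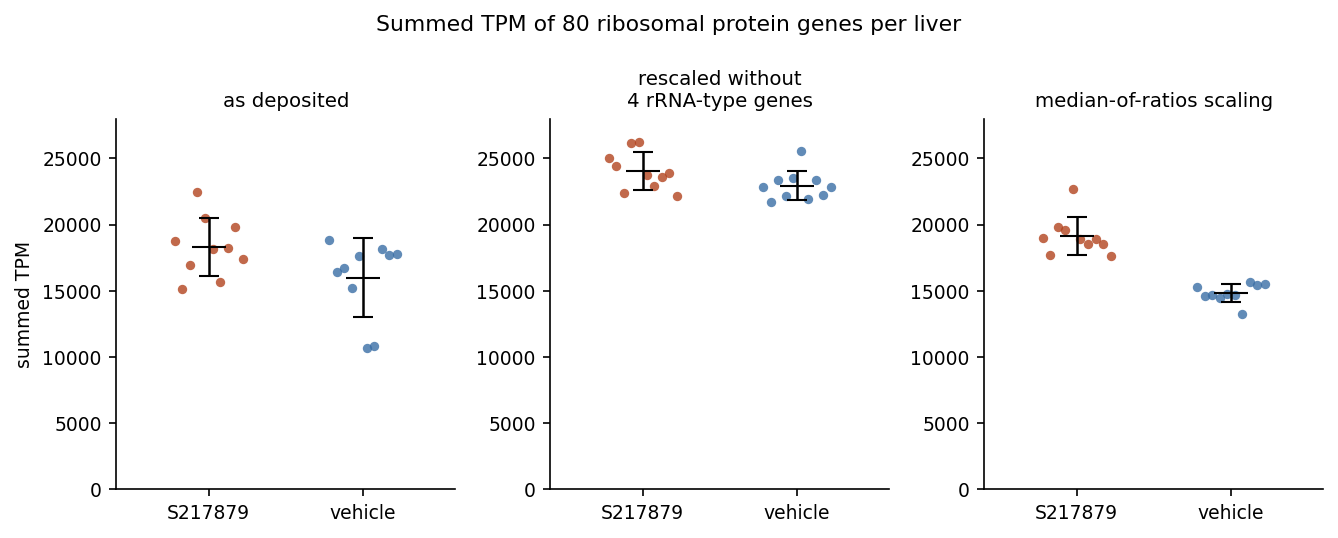
Summed TPM of the 80 ribosomal protein genes in each of 10 S217879 and 10 vehicle livers (points) with mean and SD (bars), as deposited, after rescaling without 4 rRNA-type genes, and after median-of-ratios scaling. The groups overlap in the first 2 panels and are separate in the third, where the S217879 sums start at 17650 and the vehicle sums end at 15622.

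Gene by gene, 77 members reached a mean of 1 TPM and were tested with limma on log2(TPM + 0.5) in a fit over all genes, with Benjamini-Hochberg adjustment over all of them and a threshold of 0.05. As deposited, 6 members rose (Rpl36, Rps7, Rpl12, Rps2, Rpsa and Rpl37) and 0 fell, while 6.07% of all 13401 tested genes were higher and 23.5% lower. The members' median log2 difference was 0.19, against -0.12 over all genes. An unadjusted p under 0.05 was found for 18 members (23.4%) and for 40.1% of all genes. After median-of-ratios scaling 74 of 77 rose and 0 fell, all but Rpl3, Rpl41 and Rps27l, against 30.8% of 13372 genes higher and 22.6% lower, and the members' median was 0.35. In 55 of them every S217879 library lay above every vehicle library on that scale (8.69% of all genes), and in 0 of them as deposited (1.84%). In 0 members every S217879 library lay below every vehicle library, on that scale (4.1% of all genes) or as deposited (1.89%). Rescaled without the 4 rRNA-type genes, 20 members rose and 5 fell, against 7.15% of all genes higher and 63.1% lower, and the median was 0.05. Whether the family is called higher therefore turns on the scale, and the counts as deposited, after median-of-ratios scaling and after rescaling are all given for that reason. Without vehicle libraries 6 and 7, 7 members rose and 1, Rpl3, fell as deposited (5.56% and 54.4% of all genes). The members' median was then 0.05, against -0.23 over all genes. The 6 members still passed with smaller differences, 0.31 for Rpl36, 0.30 for Rps7, 0.25 for Rpl12, 0.23 for Rps2 (limma adjusted p = 0.0335), 0.22 for Rpsa and 0.19 for Rpl37, against 0.43, 0.43, 0.37, 0.37, 0.35 and 0.33 with all libraries. In the same libraries 74 rose after median-of-ratios scaling (27.0% of all genes higher and 20.9% lower).

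Counts and medians were close in the subunits. As deposited 3 of 46 large and 3 of 31 small subunit members rose, with median log2 differences of 0.20 and 0.18. After median-of-ratios scaling 44 of 46 large and 30 of 31 small subunit members rose, with medians of 0.35 and 0.34. The within-group SD of a member's log2 value had a median over members of 0.26 as deposited and 0.11 after median-of-ratios scaling, which moves all genes of a library alike. Relative to the mean of the 77 members it was 0.07, a value that centring on the members lowers by construction.

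**Figure D2:**
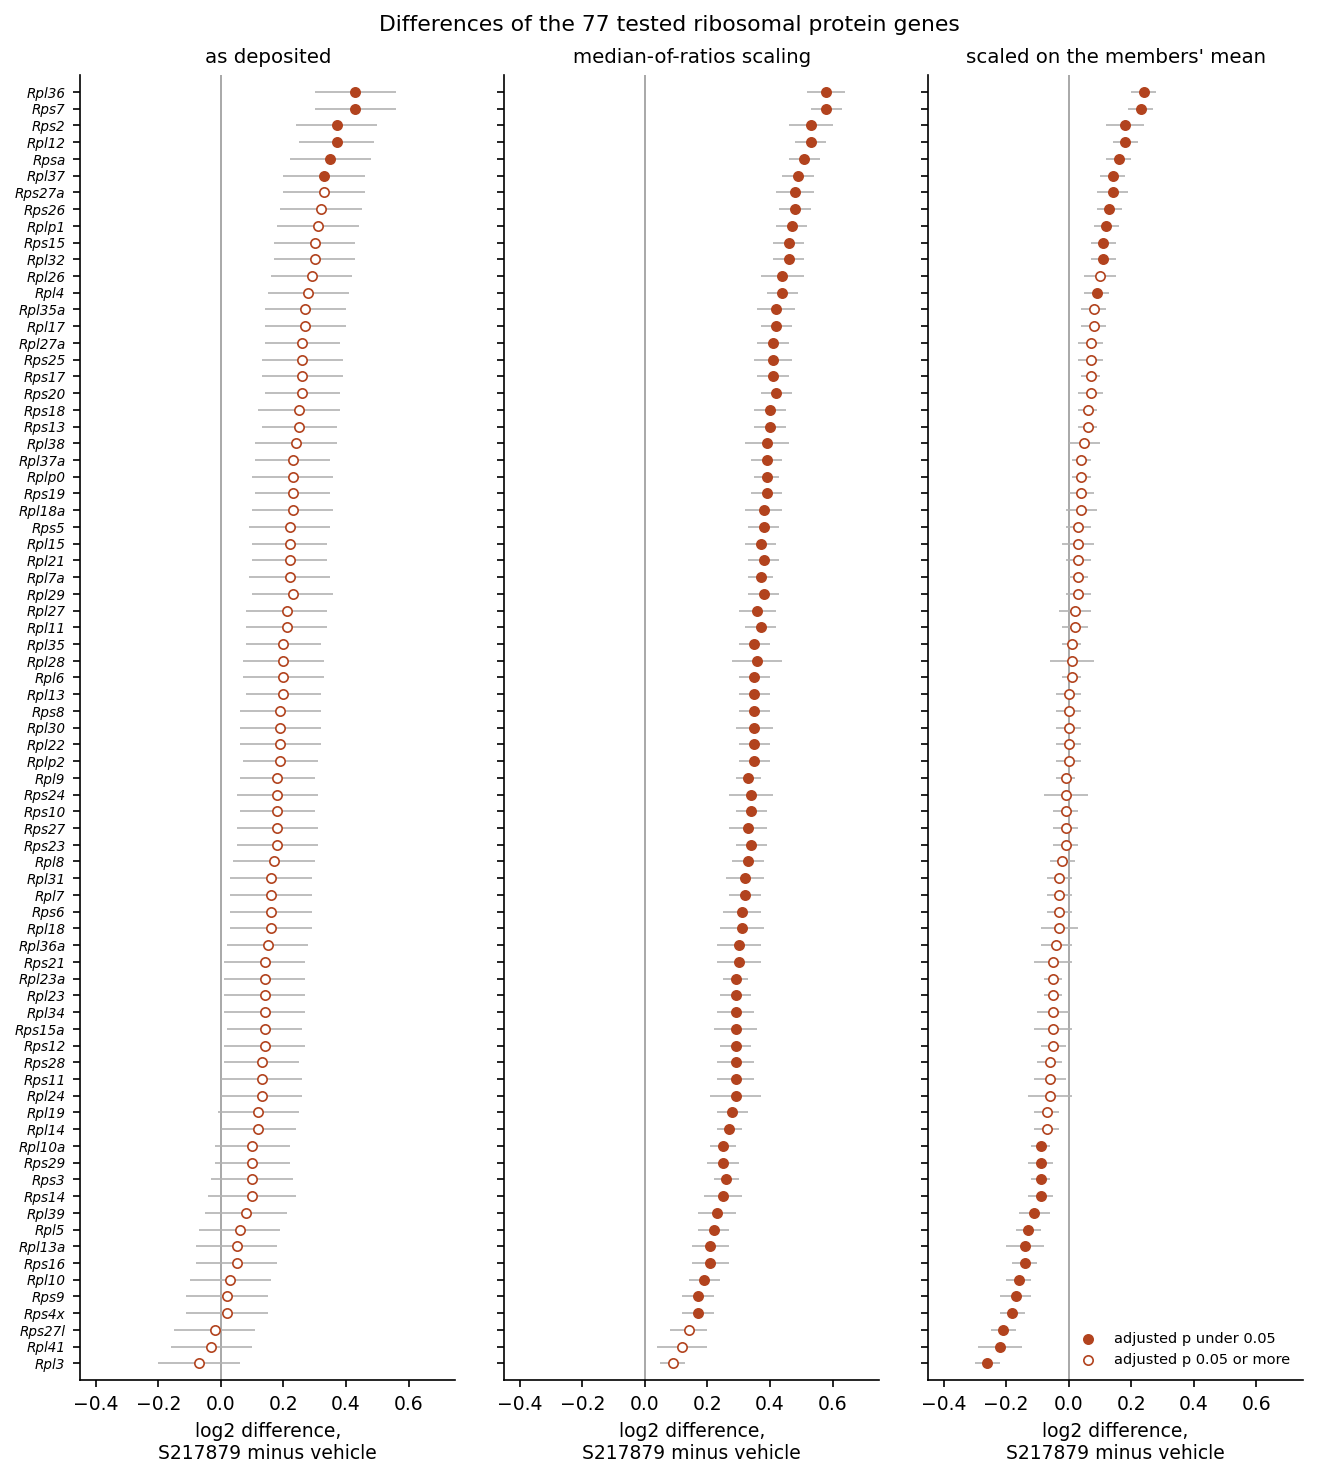
Log2 difference (S217879 minus vehicle, points, with its standard error) of the 77 tested members as deposited, after median-of-ratios scaling and relative to the mean of the members, ordered by the last; filled points have an adjusted p under 0.05. The members' differences run from -0.07 to 0.43 as deposited, where 6 are filled, against 74 after median-of-ratios scaling and 26 relative to the members' mean.

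Of 77 tested members, the 6 that rose as deposited also rose under each of the other 6 scalings run. Over all genes 5.06% of 13362 did so, and 6.07% of 13401 rose as deposited, so the members' share is close to that of all genes. All scalings use the same 20 libraries, and their agreement is not independent support. Rpl36 (chr17:56613416-56614243), a large subunit protein, had 415, 498 and 598 TPM (lowest, median and highest) in S217879 livers against 260, 389 and 482 TPM in vehicle livers. All 10 S217879 libraries were above the vehicle median, though the groups overlapped. Its log2 difference was 0.43 ± 0.13 (SE, limma adjusted p = 0.0086) as deposited, 0.58 (adjusted p = 8.18e-08) after median-of-ratios scaling and 0.29 (adjusted p = 7.29e-05) without the rRNA-type genes.

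Rps7 (chr12:28630854-28635953), a small subunit protein that can also bind MDM2, had 386, 460 and 622 TPM in S217879 livers against 240, 378 and 420 TPM in vehicle livers. Again all 10 S217879 libraries exceeded the vehicle median with some overlap of the groups. The log2 difference was 0.43 ± 0.13 (SE, limma adjusted p = 0.00968) as deposited and 0.58 (adjusted p = 5.37e-09) after median-of-ratios scaling. The calls of Rpl36 and Rps7 held in every setting run, with a highest adjusted p of 0.0254 and 0.0285.

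Rps2 (chr17:24718116-24721929) had 491, 702 and 809 TPM in S217879 livers against 345, 567 and 656 TPM in vehicle livers. The groups overlapped widely, and 8 of 10 S217879 libraries were above the vehicle median. Its log2 difference was 0.37 ± 0.13 (SE, limma adjusted p = 0.0337), and the highest adjusted p over all settings was 0.0693. Rpl12 (chr2:32961559-32965345), at the base of the stalk, had 76.8, 89.8 and 128 TPM in S217879 livers against 49.4, 75.2 and 81.3 TPM in vehicle livers. All 10 S217879 libraries were above the vehicle median, and the difference was 0.37 ± 0.12 (SE, limma adjusted p = 0.0158).

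Rpsa (chr9:120127689-120132369), a small subunit protein also known as the laminin receptor, had 174, 217 and 268 TPM in S217879 livers against 112, 182 and 205 TPM in vehicle livers. The groups overlapped and the difference was 0.35 ± 0.13 (SE, limma adjusted p = 0.029). Rpl37, a zinc-binding protein of the large subunit, had 166, 196 and 236 TPM in S217879 livers against 105, 170 and 187 TPM in vehicle livers, a difference of 0.33 ± 0.13 (adjusted p = 0.0409). S217879 libraries 3 and 4 had the widest spread in the profile described below. Without them 3 members rose as deposited (Rpl36, Rps7 and Rps2) and 0 fell (5.31% and 23.6% of all genes). After median-of-ratios scaling 76 rose without them (30.4% of all genes). As deposited the differences were then 0.31 for Rpl12 (adjusted p = 0.0608), 0.31 for Rpsa (adjusted p = 0.0826) and 0.29 for Rpl37 (adjusted p = 0.107), against 0.37, 0.35 and 0.33 with all libraries. Exons of Rpl12 and Rps2 overlap the opposite-strand genes Lrsam1 and Snhg9 by 56 and 14 bases, and the sources used here do not say whether counting used strand, so reads of each pair may not have been told apart. The same holds for other members. In all, 13 tested members overlap an opposite-strand gene with a mean of at least 1 TPM, and the longest such overlap is 953 bases, of Rpl5 with Fam69a.

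Within the family, some members stood above and others below the common shift. Each library was set on the mean log2 value of the 77 members, which removes the common shift. In S217879 livers, relative to vehicle livers, 12 members then lay above that mean and 14 below it. This centring by construction places members on both sides of the mean. It also keeps the order of the deposited differences, so the ranking repeats the earlier one and its top holds the members that rose as deposited. Over all genes 5.25% were called higher and 70.5% lower on this scale, which describes other genes relative to the family and is no measure of their own change. The highest were Rpl36 (0.24 ± 0.04), Rps7 (0.23 ± 0.04), Rps2 (0.18 ± 0.06), Rpl12 (0.18 ± 0.04), Rpsa (0.16 ± 0.04), Rpl37 (0.14 ± 0.04) and Rps27a (0.14 ± 0.05), the last a fusion whose other part is ubiquitin. They were followed by Rps26, Rplp1, Rps15, Rpl32 and Rpl4, at 0.13 to 0.09. The values are log2 differences with SE, and limma adjusted p lay between 1.88e-05 for Rps7 and 0.0489 for Rpl4.

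The lowest was Rpl3 (chr15:80077791-80091868), whose protein reaches into the peptidyl transferase centre. It made up 0.737%, 0.873% and 0.956% (lowest, median and highest) of the family's summed TPM in S217879 livers against 0.975%, 1.06% and 1.08% in vehicle livers. Every S217879 library was below every vehicle library. Its difference relative to the family was -0.26 ± 0.04 (SE, limma adjusted p = 2.15e-05), while its own TPM as deposited differed by -0.07 ± 0.13 (adjusted p = 0.723) and by 0.09 (adjusted p = 0.0782) after median-of-ratios scaling.

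Rpl41, an unusually short protein at the join of the subunits, differed from the family by -0.22 ± 0.07 (adjusted p = 0.00817). Rps27l, a copy of Rps27 known as a p53 target, differed by -0.21 ± 0.04 (adjusted p = 0.000256) and Rps4x by -0.18 ± 0.04 (adjusted p = 0.000333). Rps9 (-0.17), Rpl10 (-0.16), which joins the large subunit late in its assembly, Rps16, Rpl13a, Rpl5 (-0.13), Rpl39, Rps14, Rps3, Rps29 and Rpl10a (-0.09) were also below. All tested members on chromosome X were below the family's mean difference, 4 of 4, at -0.18 for Rps4x, -0.16 for Rpl10, -0.11 for Rpl39 and -0.04 for Rpl36a, the last with an adjusted p of 0.444, against 32 of 73 members elsewhere. The chromosome was looked at after the values were seen and has no test.

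At the other end of the ranking, Rps7 held 2.42%, 2.58% and 2.79% of the family's sum in S217879 livers against 2.09%, 2.24% and 2.34% in vehicle livers, with no overlap. Rplp1, the largest single contributor, held 5.56%, 6.81% and 7.04% in S217879 livers against 5.95%, 6.26% and 6.46% in vehicle livers. In 9 of 10 S217879 libraries its share was above the vehicle median, and the exception was library 3. Across members, the difference relative to the family had a Spearman rho of 0.03 with exon length and 0.09 with mean log2 TPM over 77 genes, which share their libraries and are not independent.

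S217879 libraries 3 and 4 had the widest spread in this profile. The SD of the 77 members' values around the family mean, each centred on its gene's average, was 0.243 in S217879 library 3 and 0.151 in library 4, against 0.06 to 0.09 in the other S217879 libraries and 0.06 to 0.13 in vehicle libraries. The nearest vehicle value was 0.127, in vehicle library 4. Without that library alone 13 members were above the mean and 13 below it (690 and 9321 of 13398 genes). Without S217879 libraries 3 and 4, 11 members were above the mean and 18 below it (5.59% and 68.9% of all genes). Of the 12 and 14 members, 10 and 13 were shared. Rpl3 was then at -0.22 (adjusted p = 5.69e-05), Rpl41 at -0.13 (adjusted p = 0.016) and Rps2 at 0.25. Rps27a was at 0.08 (adjusted p = 0.0612) and no longer passed. Without vehicle libraries 6 and 7, 12 were above and 10 below (5.19% and 67.0% of all genes), with 11 of the 12 and 10 of the 14 members shared. The summed TPM of 275 pseudogene models with a ribosomal protein name was 0.679% to 0.894% of the family's sum in S217879 livers, highest in library 4, and 0.67% to 0.788% in vehicle livers. The treatment of reads that match both a gene and its pseudogenes is not stated, and a single member's value may include or lack reads of near-identical copies.

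**Figure D3:**
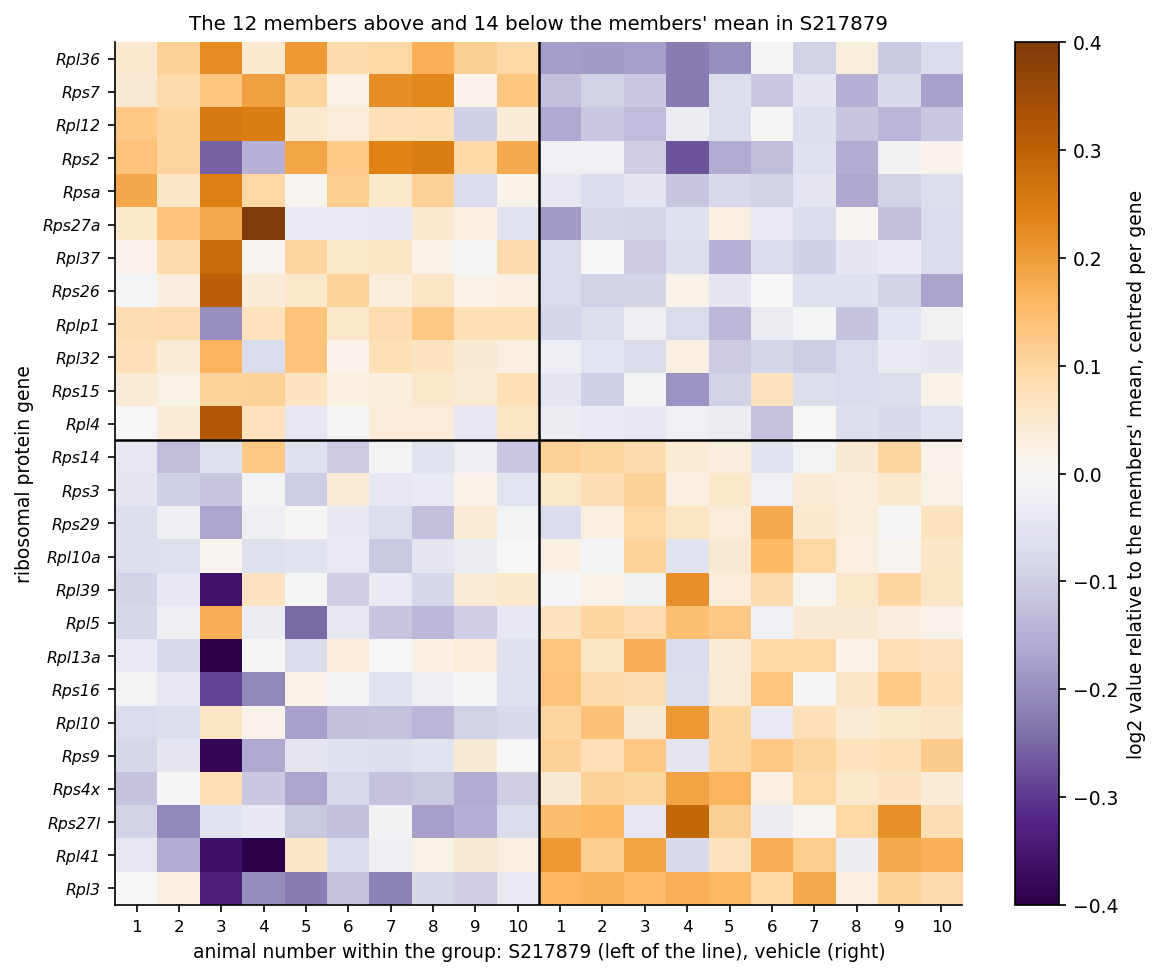
Log2 values of the 12 members above and 14 members below the family's mean difference in S217879 livers, in each animal, relative to the mean of the 77 members and centred per gene (colour, from -0.4 to 0.4). The columns left of the vertical line are S217879 livers and those to the right are vehicle livers; S217879 animals 3 and 4 show the strongest colours.

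Members with known roles were spread over the ranking. The stalk genes were Rplp0, with 403, 490 and 599 TPM in S217879 livers against 274, 453 and 486 TPM in vehicle livers, Rplp1, and Rplp2. As deposited they differed by 0.23 (adjusted p = 0.165), 0.31 (adjusted p = 0.0726) and 0.19 (adjusted p = 0.251), and 3 of 3 rose after median-of-ratios scaling, by 0.39, 0.47 and 0.35. Of Rpl5 and Rpl11, which act together outside the ribosome, Rpl5 was below the family's mean, at -0.13 (limma adjusted p = 0.0101). Rpl11 was not called different from that mean, at 0.02 (limma adjusted p = 0.576). The contrast between Rpl5 and Rpl11 itself was not tested. Rps6, the substrate of S6 kinase, had 194, 240 and 279 TPM in S217879 livers against 133, 232 and 256 TPM in vehicle livers, a difference of 0.16 (adjusted p = 0.379) as deposited and 0.31 (adjusted p = 8.84e-05) after median-of-ratios scaling. Of 13 members whose human counterparts are mutated in Diamond-Blackfan anaemia, 1 rose as deposited and 13 after median-of-ratios scaling. Of all 77 tested members 6 and 74 rose on these scales, against 6.07% and 30.8% of all genes. The counts of the stalk and anaemia genes are therefore not read as particular to them.

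The ratio of a near-copy to its parent ribosomal protein gene was lower in S217879 livers in 3 of 5 tested pairs. Most genes were lower relative to the family, with an all-gene median of -0.31 on the family's mean, where Rpl22l1 was at -0.34 and Rpl7l1 at -0.28. After median-of-ratios scaling these copies were at 0.01 and 0.06, against 0.02 over all genes, so a lower ratio to a ribosomal protein gene is not read here as particular to near-copies. A ratio within a library does not depend on the scale of the library, apart from the added 0.5 TPM. Rpl22l1, the copy that can stand in for Rpl22, had 15.8%, 22.2% and 25.4% (lowest, median and highest) of the TPM of Rpl22 in S217879 livers against 25.9%, 27.9% and 32.5% in vehicle livers. The groups did not overlap. The means were 22.3% ± 3.0 and 28.1% ± 2.21 (SD, n = 10 each), a log2 difference of the ratio of -0.34, with an adjusted p of 5e-05 in a two-sided permutation test of 100000 resamples, whose unadjusted p of 1e-05 is the smallest they can give.

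Rpl7l1, a copy of Rpl7 thought to act in assembly of the large subunit, had 20.4%, 23.0% and 31.2% of the TPM of Rpl7 in S217879 livers against 26.1%, 28.3% and 31.0% in vehicle livers. In 9 of 10 S217879 libraries the percentage was below the vehicle median, and library 6, the highest of all libraries, was the exception. The log2 difference was -0.26 (permutation test, adjusted p = 0.00217). Rps27l had 109%, 121% and 142% of the TPM of Rps27 in S217879 livers against 121%, 143% and 158% in vehicle livers, so the copy exceeded its parent in both groups. The difference was -0.19 (permutation test, adjusted p = 0.0074), with 10 of 10 S217879 libraries below the vehicle median. These p-values are adjusted over the 5 pairs tested of 8 listed.

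The other pairs did not pass. Rpl36al had 232% ± 34.5 of the TPM of Rpl36a in S217879 livers and 246% ± 26.4 in vehicle livers (SD, n = 10 each; permutation test, adjusted p = 0.345). The pseudogene model Rps4l had 6.67% ± 1.97 of Rps4x in S217879 livers and 7.88% ± 1.71 in vehicle livers (permutation test, adjusted p = 0.169). In TPM, Rpl22l1 had 10.02, 16.5 and 24.5 in S217879 livers against 11.1, 19.97 and 21.5 in vehicle livers, a difference of -0.15 (limma adjusted p = 0.423), and 0.01 (adjusted p = 0.963) after median-of-ratios scaling.

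**Figure D4:**
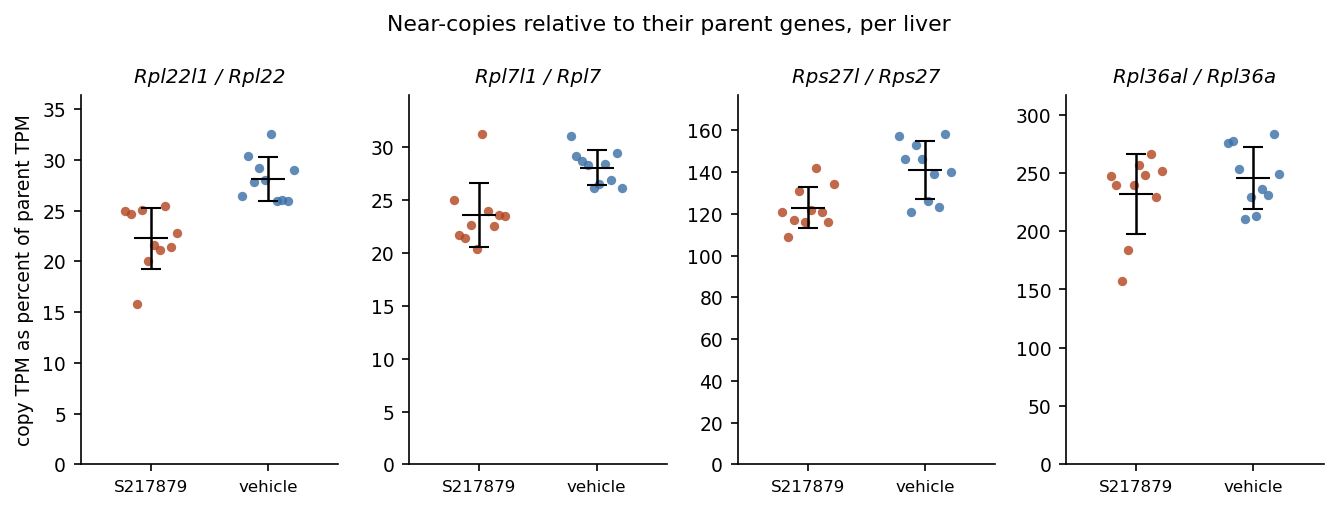
TPM of a near-copy as a percent of the TPM of its parent gene in each liver (points) with mean and SD (bars), S217879 left and vehicle right, with each vertical axis starting at 0. Rpl22l1 is separate between the groups, Rpl7l1 and Rps27l are shifted down in S217879 livers with overlap, and Rpl36al overlaps throughout.

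The other genes of ribosome production and translation were counted in lists, and a list's median is read beside the median of all genes, -0.12 as deposited and 0.02 after median-of-ratios scaling. Counts in these and the later lists are read beside the shares over all genes. These were 6.07% higher and 23.5% lower as deposited, and 30.8% higher and 22.6% lower after median-of-ratios scaling. Of 17 genes of translation elongation and other TOP genes, 0 rose and 1 fell as deposited (median 0.07), and 13 rose and 1 fell after median-of-ratios scaling (median 0.23). Eef1a1, the elongation factor that brings aminoacyl-tRNA, had 2450, 2895 and 3443 TPM in S217879 livers against 1695, 3081 and 3416 TPM in vehicle livers, and the groups overlapped throughout. The member that fell was Hnrnpa1, a splicing factor whose messenger carries a TOP tract, at -0.41 ± 0.12 (adjusted p = 0.00978). Of 36 initiation factors 1 rose as deposited, Eif4a2, an RNA helicase, at 0.33 ± 0.13 (adjusted p = 0.0464), and 27 rose after median-of-ratios scaling (medians 0.07 and 0.22).

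Genes that build ribosomes were counted next. Of 41 biogenesis factors 1 rose and 2 fell as deposited (median 0.00), and 17 rose and 2 fell after median-of-ratios scaling (median 0.15). Pno1, needed for the last cut of the small subunit RNA, had 34.1, 39.6 and 56.4 TPM in S217879 livers against 18.9, 34.5 and 37.1 TPM in vehicle livers, at 0.36 ± 0.12 (adjusted p = 0.0217). Noc2l, a nucleolar assembly factor, was at -0.31 ± 0.11 (adjusted p = 0.0329). Without S217879 libraries 3 and 4 the differences were 0.28 for Pno1 (adjusted p = 0.0878), -0.30 for Noc2l (adjusted p = 0.0589) and 0.27 for Eif4a2 (adjusted p = 0.138), against 0.36, -0.31 and 0.33 with all libraries, and no longer passed. Of 19 genes of RNA polymerase I and its factors 0 rose and 1 fell as deposited, Taf1c at -0.34 (limma adjusted p = 0.0167). After median-of-ratios scaling 8 rose and 2 fell (medians -0.05 and 0.10). Of 14 snoRNA host RNAs 0 rose and 1 fell as deposited, Snhg18 at -0.59 (limma adjusted p = 0.000199). After median-of-ratios scaling 5 rose and 1 fell (medians 0.03 and 0.15). Libraries were made by poly(A) capture. The models of ribosomal RNA type still took 14.07% to 58.24% of all TPM, and this share is no measure of the ribosomal RNA in the livers.

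Among 23 genes of mTORC1 and its arms 4 rose and 3 fell as deposited, and 13 rose and 2 fell after median-of-ratios scaling (medians 0.0 and 0.15). Eif4ebp3, which binds and blocks the cap-binding factor, had 11.95, 24.03 and 46.5 TPM in S217879 livers against 3.74, 9.75 and 15.5 TPM in vehicle livers. All 10 S217879 libraries were above the vehicle median, and the difference was 1.45 ± 0.30 (limma adjusted p = 0.00098). Sesn1, a relative of Sesn2 that restrains mTORC1, had 5.94, 7.16 and 10.3 TPM in S217879 livers against 6.05, 10.2 and 12.3 TPM in vehicle livers, and fell by 0.36 on the log2 scale (adjusted p = 0.0142), with overlap of the groups. The most abundant genes of the lists from elongation to mTORC1 did not pass as deposited, at 0.03 for Eef1a1 and Eef2, 0.22 for Eif5a, -0.06 for Eif1, -0.03 for Npm1, 0.16 for Nop10, -0.06 for Polr2f, 0.09 for Polr2l, -0.04 for Eif4ebp2 and 0.21 for Deptor. Of 18 p53 targets 2 rose and 10 fell as deposited, and likewise 2 rose and 10 fell after median-of-ratios scaling (medians -0.35 and -0.20). Gdf15, a stress hormone, fell by 1.21 on the log2 scale (adjusted p = 7.49e-05), Bax, which opens the mitochondrial outer membrane, fell by 0.55 (adjusted p = 0.000592), and Sesn2, which restrains mTORC1 when amino acids are low, rose by 0.51 (adjusted p = 0.000601).

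Other large complexes were set beside the family. Of 78 mitochondrial ribosomal proteins 2 rose and 0 fell as deposited (median 0.07), and 64 rose and 0 fell after median-of-ratios scaling (median 0.22). Mrpl14, one of their large subunit proteins, had 122, 149 and 170 TPM in S217879 livers against 60.7, 102 and 128 TPM in vehicle livers, a difference of 0.59 ± 0.13 (adjusted p = 0.000642). Of 71 nuclear-encoded oxidative phosphorylation subunits 9 rose and 1 fell as deposited (median 0.23), and 68 rose and 1 fell after median-of-ratios scaling (median 0.38). The highest and lowest called were Ndufb3 of complex I (0.44, adjusted p = 0.0103) and Cox7a1 of complex IV (-1.03, adjusted p = 8.5e-09). Of 38 proteasome subunits 2 rose and 3 fell (median 0.12), and 31 rose and 3 fell after that scaling (median 0.27). Here the extremes were Psmb5, a catalytic subunit (0.45, adjusted p = 0.00919), and Psmd8 (-0.54, adjusted p = 0.000332). Whether the cytosolic ribosomal proteins differ from these lists was not tested.

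**Figure D5:**
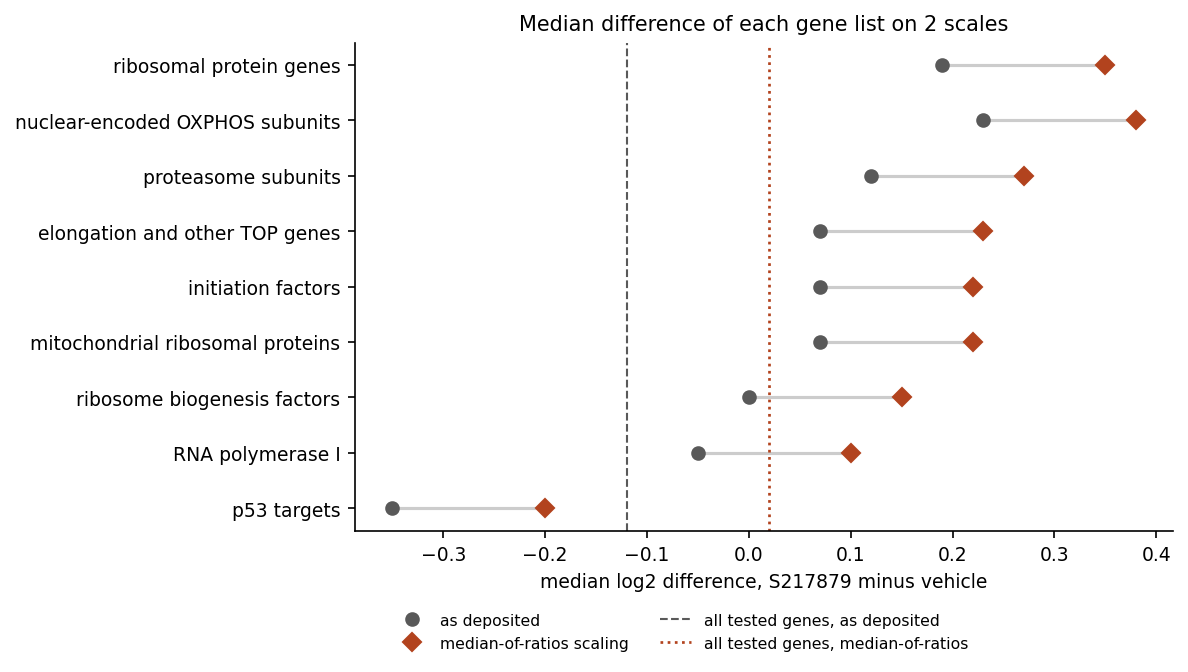
Median log2 difference (S217879 minus vehicle) of the tested members of 9 gene lists as deposited (circles) and after median-of-ratios scaling (diamonds), with the median of all tested genes on each scale as a vertical line. The ribosomal protein genes sit at 0.19 and 0.35, near the oxidative phosphorylation subunits at 0.23 and 0.38, and the p53 targets sit at -0.35 and -0.20.

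Markers of other liver cells are given beside these results. Of 7 macrophage markers 0 rose and 5 fell as deposited, and of 6 stellate cell and fibroblast markers 0 rose and 6 fell (5 after median-of-ratios scaling), among them Col1a1 at -1.31 ± 0.15 (adjusted p = 9.75e-09). The summed TPM of the macrophage markers ran from 471.3 to 875.6 in S217879 livers and from 571.8 to 1120 in vehicle livers, and that of the stellate markers from 188.7 to 374.6 in S217879 livers and from 263.5 to 501.6 in vehicle livers. Of 5 endothelial markers 2 rose and 0 fell as deposited (median 0.25), among them Kdr at 0.43 (adjusted p = 0.00542), and 4 rose after median-of-ratios scaling, with summed TPM of 89.2 to 122 in S217879 livers and 53.3 to 112 in vehicle livers. Of 4 erythroid markers 0 passed as deposited (median 0.36) and 2 rose after median-of-ratios scaling, with sums of 196 to 822 TPM in S217879 livers and 173 to 340 TPM in vehicle livers. Of 4 lymphocyte markers 0 rose and 1 fell, Ptprc at -0.60 (median -0.11), and of 3 cholangiocyte markers 0 rose and 1 fell, Epcam at -0.64 (median -0.26). Of 7 hepatocyte markers 2 rose and 2 fell, and Alb differed by -0.18 (adjusted p = 0.437). In bulk liver, fewer cells of a type and less RNA per cell cannot be told apart, and the part of cell composition in the values of the ribosomal protein genes was not tested.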

How the data were processed

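Liver RNA was extracted with a kit for lipid-rich tissue and made into stranded poly(A) libraries, per the labels' protocols. The submitters' processing notes name Trimmomatic 0.36, STAR 2.5.2b, featureCounts of Subread 1.5.2 and the build GRCm38. How counting treated strand and multi-mapping reads is not stated. The authors deposited 1 table of TPM, a non-negative expression signal that sums to 1000000 in each of 20 libraries, for 49315 genes, and depth is unknown. Coordinates are from GENCODE M21 (GRCm38), which holds 49056 of the IDs.

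Differences were fitted with limma 3.58.1 (R 4.3.3; empirical Bayes with trend and robust settings) on log2(TPM + 0.5) for genes averaging 1 TPM or more, with Benjamini-Hochberg adjustment and a threshold of 0.05. Fold changes are on this scale, which understates the change of low genes. Median-of-ratios factors came from 19481 genes. Copy-to-parent ratios were compared by two-sided permutation tests (scipy 1.17.1; numpy 2.4.6, pandas 2.3.3, python 3.11.15, matplotlib 3.10.9). The fit was tested on simulated data with noise drawn separately for each gene and library. Shifts shared by all genes of a library were not simulated for it, so its behaviour under such shifts was not tested. Labels number every animal separately.

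The members and gene lists were chosen with earlier results of these data known. Members named in the text are the 6 most abundant, the 5 highest and 5 lowest as deposited, the 3 highest and 3 lowest relative to the family, those in pairs, those under the minimum, and Rpsa, Rplp0, Rplp1, Rplp2, Rps27a, Rps6, Rpl5 and Rpl11. Of each other list the rule picks the 2 most abundant and the called genes with the highest and lowest difference. The text gives only some of these for the lists outside translation and ribosome production, and leaves some lists out. The other members above or below the family mean and those on chromosome X were named after their values were seen. Other scalings, filters, pseudocounts, settings of limma and sets of libraries were tried.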

Additional observations from a re-analysis of the deposited data

Results flagged for a closer look

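Of 172 groups of 10 values checked, 15 had a highest or lowest library whose gap to its neighbour, divided by the range of the group, exceeded Dixon's 95% critical value. Chance gives about 1 in 20 such groups. S217879 library 4 was the high library in 5 ribosomal protein genes: Rps12 at 811 TPM (496 to 663 in the other S217879 libraries), Rpl12 at 128 TPM (76.8 to 100), Rps27a at 213 TPM (107 to 143), Rpl36a at 112 TPM (61.9 to 84.3) and Rpl10 at 420 TPM (263 to 341). Library 4 also had the lowest share of the rRNA-type models (14.07%) and the highest family sum (22468 TPM) of all libraries. Relative to the family's mean and centred per gene, its log2 values were 0.058 for Rps12, 0.249 for Rpl12, 0.408 for Rps27a, 0.202 for Rpl36a and 0.014 for Rpl10.

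The same library was high in Pno1 at 56.4 TPM (34.1 to 46.0), Gas5, a snoRNA host, at 34.6 TPM (23.8 to 29.2), Ndufb3 of complex I at 152 TPM (86.0 to 121) and Psmb1 of the proteasome at 266 TPM (161 to 198). After median-of-ratios scaling, the family's sum was 22694 in S217879 library 5 (17650 to 19797 in the others) and 13278 in vehicle library 7 (14438 to 15622). Rpl7l1 had 31.2% of the TPM of Rpl7 in S217879 library 6 (20.4% to 25.0%). Gdf15 had 21.3 TPM in S217879 library 1 (6.36 to 12.5). In S217879 library 3, mt-Co1 had 35656 TPM (16341 to 25640) and mt-Cytb 17979 TPM (10467 to 14333).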

How the results depend on the processing

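No paired analysis was possible because the labels number every animal separately and the groups share no number. As deposited, 3964 of all genes and 6 members higher and 0 lower were called. All genes called, members higher and members lower were 7148, 74 and 0 after median-of-ratios scaling, 6890, 38 and 4 after quantile normalization, 10144, 20 and 5 without the rRNA-type genes, 9679, 44 and 1 without the 20 most abundant genes, 10155, 12 and 14 on the family's mean, and 8988, 11 and 4 with array weights. With neither trend nor robust settings 11 members were higher, and 2270 genes were called at a minimum of 5 TPM. Without vehicle libraries 6 and 7 the values were 8054, 7 and 1, and 6412, 74 and 0 after median-of-ratios scaling. Alternatives chosen after seeing the data gave 7186 and 74 higher with median-of-ratios factors from genes of at least 1 TPM. Without vehicle libraries 6 and 7 they gave 9363, 23 and 4 without the rRNA-type genes, and 9689, 12 and 10 on the family's mean. Without S217879 libraries 3 and 4 they gave 3 higher as deposited, 7135 and 76 higher after median-of-ratios scaling, and 9995, 11 and 18 on the family's mean. Leaving out each library in turn gave 3 to 8 members higher (3 without S217879 library 1 or 5) and 3430 to 5984 genes as deposited (5984 without vehicle library 6). It gave 74 to 75 higher and 6772 to 7169 genes after median-of-ratios scaling, and 11 to 13 higher, 11 to 15 lower and 9820 to 10220 genes on the family's mean.

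Members near 0 as deposited changed sign with the scale. After median-of-ratios scaling Rpl3 was at 0.09, Rpl41 at 0.12 and Rps27l at 0.14, and without vehicle libraries 6 and 7 at 0.06, 0.11 and 0.09. Without mitochondrially encoded genes Rps27l was at 0.01. Rps4x, Rps9, Rpl5 and Rpl10 were at -0.11, -0.10, -0.01 and -0.09 after quantile normalization, at -0.13, -0.12, -0.08 and -0.11 without the rRNA-type genes, and at -0.06, -0.05, -0.01 and -0.04 without the 20 most abundant genes. They were at -0.18, -0.17, -0.13 and -0.16 on the family's mean, at -0.14, -0.10, -0.10 and -0.13 with array weights, and at -0.13, -0.11, -0.09 and -0.12 without vehicle libraries 6 and 7. Rpl39 was at -0.06 without the rRNA-type genes and also without vehicle libraries 6 and 7, at -0.11 on the family's mean and at -0.05 with array weights. Rps12 was at -0.01 without the rRNA-type genes and with array weights, and at -0.05 on the family's mean. On that mean Rpl8 was at -0.02, Rps6 at -0.03, Rps27 at -0.01, Rpl36a at -0.04 and Rpl7 at -0.03, and with array weights Rps6 was at -0.01, Rpl36a at -0.03 and Rpl7 at -0.01. With single libraries left out, values as deposited and after median-of-ratios scaling ran from -0.04 to 0.06 and 0.17 to 0.20 for Rpl10, from -0.14 to -0.03 and 0.07 to 0.10 for Rpl3, from -0.09 to 0.01 and 0.08 to 0.17 for Rpl41, from -0.01 to 0.09 and 0.19 to 0.23 for Rpl5, from -0.09 to 0.02 and 0.11 to 0.16 for Rps27l, from -0.05 to 0.04 and 0.15 to 0.18 for Rps4x, and from -0.04 to 0.06 and 0.14 to 0.20 for Rps9. The ratio of Rpl36al to Rpl36a was at 0.02 without S217879 libraries 3 and 4 (permutation test, adjusted p = 0.784, range over its settings 0.243 to 0.784), and -0.12 to -0.03 with single libraries left out. The causes were not tested. TPM keeps no depth, so counting error cannot be given.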
